A study of Vitis vinifera with 4 samples.

Results

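The binding events of MYBPA1 on grapevine chr05 and chr07 numbered 3547 of the 30318 in the deposited list. They were all events whose chromosome name was chr05 (1663 events) or chr07 (1884 events). MYBPA1 is a MYB transcription factor of grapevine that is known as an activator of proanthocyanidin synthesis, the branch of the flavonoid pathway that makes the condensed tannins of seeds and skins. MYB proteins of this class hold short DNA motifs through paired helical repeats, and motifs of that length recur throughout a plant genome. Grapevine descends from a hexaploid ancestor, and stretches of chr05 and chr07 are known to derive from the same ancestral chromosome. No homologous blocks were placed on the coordinates here, so the comparison is between whole chromosomes. Positions are in bp from the first base of a chromosome, in the build of the list, which is not given in the sources used here, and no gene or sequence was tied to them.

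Events were mapped by DNA affinity purification sequencing (DAP-seq). A HALO-tagged protein made in rabbit reticulocyte lysate was offered naked genomic DNA fragments of Pinot Noir young leaf, and the retained fragments were sequenced. The 4 libraries were 2 with MYBPA1 and 2 with pIX-HALO, the tag without a transcription factor, all on the same kind of DNA (clone PN-94). Because that DNA carried no chromatin, an event is a called position whose fragments the protein held in a tube, and not occupancy in a cell. The list gives 1 value per event and none per library, so the depth is unknown and the values below carry no error between libraries. Intervals are therefore 95% counting intervals (exact Poisson for densities, Clopper-Pearson for shares). They treat events as independent although many stand close together, so they are too narrow. The spread over the other 17 numbered chromosomes (SD, n = 17) is given beside them as the yardstick for an ordinary chromosome, and no test was run.

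Taken as wholes, both chromosomes held events at an ordinary density. Between its first and last event chr05 spanned 25.6 Mb and held 64.9 events per Mb (interval 61.9 to 68.1). Chr07 spanned 27.3 Mb and held 68.9 per Mb (65.8 to 72.1). The other 17 chromosomes held 65.1 ± 9.80 per Mb, between 49.1 and 84.2. The density of chr05 over that of chr07 was 0.942, with an interval of 0.882 to 1.01 that includes equality.

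Along their length the chromosomes differed beyond the counting intervals, which are too narrow, in the middle and right parts. Both stayed within the range of the others in each part. Each span was cut into a left, a middle and a right part of 33.3% each, and the left and right parts together are called the ends. On chr05 the left part of the span was the densest, with 728 events or 85.3 per Mb, the middle part held 403 or 47.2 per Mb, and the right part 532 or 62.3 per Mb. On chr07 both ends were dense and similar, with 781 events or 85.7 per Mb in the left part and 750 or 82.3 per Mb in the right, whereas the middle part held 353 or 38.7 per Mb. The left parts of chr05 and chr07 did not differ beyond counting error (ratio 0.995, 0.898 to 1.10). The middle of chr05 was the denser of the middles (1.22-fold, 1.05 to 1.41), and its right part was the sparser (0.757-fold, 0.676 to 0.847). The interval for the middles ends close to equality, so with a wider error that difference might not stand. Within chr05 the right part had 0.731 times the events of the left (0.652 to 0.818), against 0.960 times (0.868 to 1.06) within chr07. The other 17 chromosomes held 78.2 ± 17.9 per Mb in the left part, 54.8 ± 15.8 in the middle and 62.4 ± 15.5 in the right. Their right part had 0.881 ± 0.456 times the events of the left, between 0.501 and 2.17.

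The middle part held 18.7% of the events of chr07 (17 to 20.6%) and 24.2% of those of chr05 (22.2 to 26.4%), where 26.9% of all events on numbered chromosomes lay in such a middle part. The other 17 chromosomes had 27.7 ± 5.01%, between 20.1 and 36.7%. Chr07 lay below all 17 and chr05 above 4 of them. The middle of chr07 had 0.461 times the density of its ends (0.410 to 0.518), and that of chr05 had 0.640 times (0.570 to 0.716). The lowest of the others was chr19, whose interval of 18.0 to 22.3% for the share overlaps that of chr07. The rank of chr07 at the bottom also depended on where the middle was drawn. In the middle 50% of the span chr07 held 35.2% of its events, again below all 17 others (36.8 to 53.0%). In the middle 20% it held 11.1%, and 4 of the 17 others held less, down to 5.94%.

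**Figure D1:**
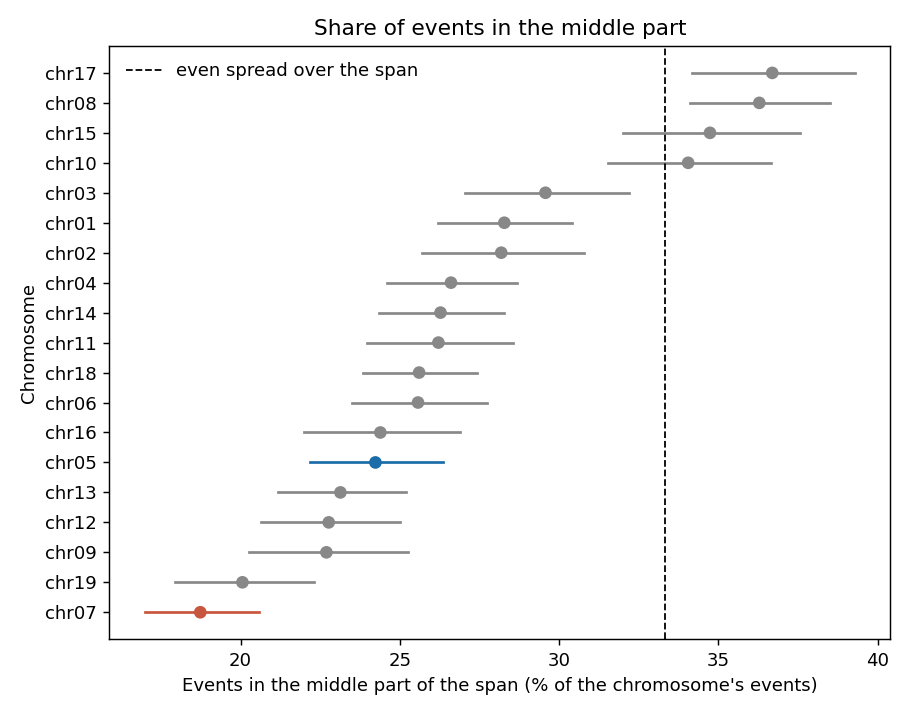
Share of each chromosome's events that lay in the middle part of its span, in percent, with 95% Clopper-Pearson intervals as bars. Chr07 (red, 18.7%) is the lowest of the 19 chromosomes, chr05 (blue, 24.2%) lies among the others (grey), and the dashed line marks even spread.

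Windows of 1 Mb showed the same shapes in detail. On chr05 the full windows held between 16 and 122 events with a median of 61. Its richest were 3000001 to 4000000 with 122 events, 4000001 to 5000000 with 107 and 2000001 to 3000000 with 89, neighbours near the left end. The poorest were 13000001 to 14000000 with 16, 16000001 to 17000000 with 35 and 12000001 to 13000000 with 45. Chr05 thus had its crest on the left and a lower right side, with only 2 of 25 windows holding at least 90 events.

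On chr07 the full windows held between 11 and 119 events with a median of 70. The richest was 4000001 to 5000000 with 119, followed by 2000001 to 3000000 on the left and 22000001 to 23000000 on the right with 104 each. The poorest were 13000001 to 14000000 with 11, 9000001 to 10000000 with 13 and 12000001 to 13000000 with 39. Windows with at least 90 events numbered 9 of 27 (33.3%) on chr07, compared with 80 of 397 (20.2%) on the other chromosomes pooled. That share does not set chr07 apart from each of them. On 7 of the 17 others the median window held more events than on chr07, up to 89.5 on chr08. Windows with under 50 events stood together in the middle of chr07. The longest run of them was 6, from 11000001 to 17000000 with 226 events, and that of chr05 was 3. On the other 17 chromosomes the longest run was 1 to 7 windows with a median of 4, equal to that of chr07 on 2 and longer on 2. The limits of 50 and 90 were chosen after these counts had been seen.

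**Figure D2:**
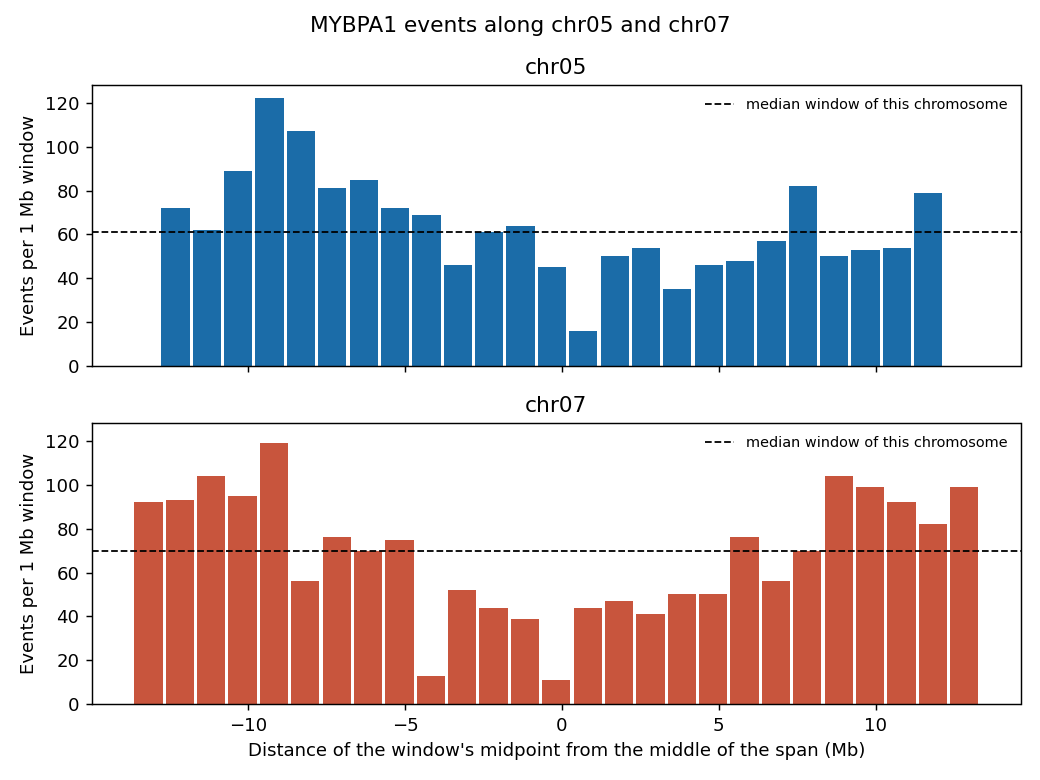
Events per full 1 Mb window along chr05 (top) and chr07 (bottom), against the distance of the window's midpoint from the middle of the span in Mb; dashed lines mark the medians of 61 and 70 events. Chr05 has its crest of up to 122 events on the left, and chr07 has a crest at each end and a trough that goes down to 11 events.

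The unevenness of the windows was moderate on both. The variance of the window counts over their mean, which is 1 for independent placement at one rate, was 8.11 on chr05 and 11.6 on chr07, against 10.3 ± 3.33 on the others. Chr07 lay above 11 of the 17 others and chr05 above 4.

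Cutting each span into 10 equal bins gave the outline without regard to length. On chr05 the second bin held the most events, 290 or 17.4%, and the sixth the fewest, 92 or 5.53%. On chr07 the second held 281 or 14.9%, the ninth 279 or 14.8%, and the fifth, the lowest, 91 or 4.83%. In the second bin the other chromosomes had 11.9 ± 3.19%, at most 17.3%, and in the ninth 9.97 ± 3.11%, at most 15.3%. The counts of the 10 bins correlated between chr05 and chr07 with r = 0.612, and with r = 0.675 when chr07 was read from its other end. Among all 171 pairs of numbered chromosomes read forward the median r was 0.380, with quartiles of −0.0331 and 0.619, and the pair ranked 47. With one chromosome of each pair turned the median was 0.212. This is a description over 10 bins of 1 list, and bins of both chromosomes share its libraries.

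The longest stretches without an event lay close to the middle of both spans. On chr05 the longest ran 717 kb from the event centre at 12842098 to that at 13559163, that is from 50.1 to 52.9% of the span. On chr07 it ran 596 kb from 13207588 to 13803196, from 48.3 to 50.5% of the span. The longest gap on the other chromosomes was 734 ± 305 kb.

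Of the next 4 gaps of chr07, the second and the fifth longest flanked that central one. The 4 measured 413 kb from 12552768 to 12965671, 378 kb from 9024807 to 9402905, 299 kb from 5775433 to 6074839 and 293 kb from 14014396 to 14307485. Those of chr05 were spread out. They measured 380 kb from 16322076 to 16702418, 297 kb from 1756563 to 2054050, 192 kb from 22845330 to 23037620 and 191 kb from 23454138 to 23645578. The fifth of chr07 was thus longer than the fourth of chr05.

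Long gaps took up much of the middle of chr07. Gaps over 100 kb numbered 20 on chr05 and 26 on chr07, near the 22.1 ± 8.75 of the others. On chr07, however, 19 of the 26 lay in the middle part, more than on any of the other 17 chromosomes (3 to 16). These counts are not scaled to length. The middle part of chr07 was 9.11 Mb long, and that of chr09, which had 16, was 7.66 Mb. The 19 covered 42.1% of the middle of chr07, against 29.0 ± 15.4% on the others, of which 2 lay higher, up to 59.0%. On chr05 the gaps over 100 kb were 8 in the middle part and 10 in the right, and covered 20.9% and 17.3% of these.

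Sparser placement between the long gaps was also seen. With gaps over 100 kb left out of the length, the middle part had 59.7 events per Mb on chr05 and 66.9 on chr07, and the ends had 83.0 and 89.7. The ratio of middle to ends was then 0.719 on chr05 and 0.746 on chr07, and all 17 others lay higher (0.937 ± 0.113, lowest 0.774). This depended on the length at which a gap was left out. With gaps over 200 kb left out the ratios were 0.721 and 0.568, both below the 0.728 of the lowest other. With gaps over 50 kb left out they were 0.970 and 0.992, within the 0.998 ± 0.0723 of the others, and 7 of the 17 lay below each. Among events with a −log10 q of at least 5 the ratios at 100 kb were 0.893 and 0.984, with 5 and 10 of the 17 others lower.

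Neighbouring centres were a median of 7548 bp apart on chr05 (quartiles 2405 and 18462 bp) and 6740 bp on chr07 (2265 and 16180 bp), where the others had a median of 7193 ± 558 bp. The medians of chr05 and chr07 both lay within the range of the others, 6240 to 8270 bp. In the middle part the median was 9410 bp on chr05 and 10251 bp on chr07. In the left and right parts it was 6302 and 8865 bp on chr05, and 6070 and 6756 bp on chr07.

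**Figure D3:**
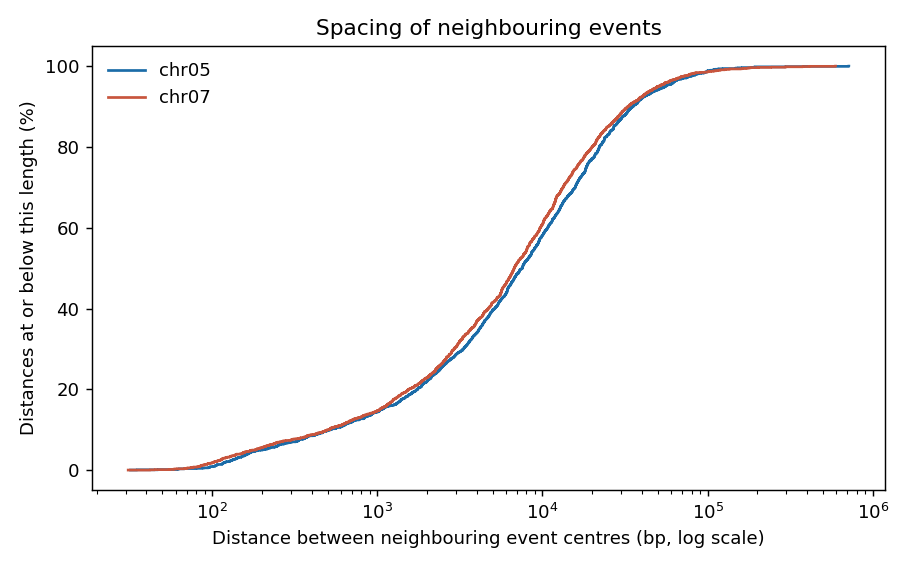
Cumulative share, in percent, of distances between neighbouring event centres at or below a given length (bp, log scale) on chr05 (blue) and chr07 (red). Chr05 lies lower around 100 bp, the curves run close together from 200 to 1000 bp, and chr05 then lies to the right, with medians of 7548 and 6740 bp.

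Of the events on chr05, 448 (26.9%, 24.8 to 29.1%) had another event within 1000 bp, and on chr07 525 (27.9%, 25.9 to 30.0%). The share over all numbered chromosomes was 28.3% and the other 17 had 28.3 ± 1.41%, so both counts were near the background. Within 200 bp, less than the 201 bp width of an event, 164 events on chr05 (9.86%, 8.47 to 11.4%) and 207 on chr07 (11.0%, 9.61 to 12.5%) had a neighbour, where the share over all numbered chromosomes was 10.6%.

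Neighbours within 200 bp were more frequent in the middle of chr05 and less frequent in that of chr07 than at the ends. On chr05 the share with a neighbour within 200 bp was 13.9% in the middle part (10.7 to 17.7%), 8.38% in the left (6.47 to 10.6%) and 8.83% in the right (6.57 to 11.6%). On chr07 it was 7.37% in the middle (4.87 to 10.6%), 11.1% in the left (9.02 to 13.6%) and 12.5% in the right (10.2 to 15.1%). The interval of the chr05 middle overlaps that of its right part, and that of the chr07 middle overlaps those of both its ends. The middle minus the ends was 5.32 percentage points on chr05, above all 17 others, and −4.46 points on chr07, below 16 of them (0.349 ± 2.77 points on the others, from −5.72 to 4.91). The counts are small, 56 events in the middle of chr05 and 26 in that of chr07, and members of a pair are counted together. Within 1000 bp the difference was 2.43 points on chr05 and −2.92 on chr07, both within the range of the others (0.446 ± 4.07 points), with 4 of the 17 above chr05 and 4 below chr07.

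The tightest spacings were uneven too. Distances of 50 to under 100 bp occurred 12 times on chr05, 0.722% of its gaps (0.374 to 1.26%), and 31 times on chr07, 1.65% (1.12 to 2.33%). All 17 others had a higher share than chr05 (0.892 to 2.31%), although the intervals of chr05 and chr07 overlap. From 100 to under 150 bp the counts were 39 and 43 (2.35 and 2.28%), close to the 2.26 ± 0.436% of the others. Under 50 bp each chromosome had 3.

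Pairs at most 200 bp apart numbered 83 on chr05 and 105 on chr07. Their median distance was 132 bp on chr05 and 115 bp on chr07, against 124 ± 6.04 bp on the others. The signal of the stronger member over that of the weaker had a median of 1.66 on chr05 and 1.57 on chr07 (1.74 ± 0.128 on the others).

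The strongest such pair of chr05 stood near its right end, with centres at 25566027 and 25566222 and signals of 75.5 and 871.5. That of chr07 stood in its emptiest window. Its centres at 13964238 and 13964269 were 31 bp apart and had signals of 392.2 and 127.8.

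Joined at distances of at most 1000 bp, the events formed 22 groups of 3 or more on chr05 and 26 on chr07. That is 13.2 and 13.8 groups per 1000 events, where the others had 16.7 ± 2.94 and 1 of the 17 had fewer than either. Of the groups of chr07, 14 lay in the left part, 2 in the middle and 10 in the right, parts that held 41.5, 18.7 and 39.8% of its events. Those of chr05 were 12, 6 and 4 in that order, in parts with 43.8, 24.2 and 32.0% of its events. The counts are too small to separate the placement of groups from that of all events. Without events within 200 bp of a stronger one, 13 and 14 groups were left.

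The largest group of each chromosome held 5 events. On chr05 it ran from 3993120 to 3995225 with signals of 63, 51.5, 426.5, 94.5 and 27.5 from left to right. On chr07 it ran from 5112954 to 5114718 with signals of 43.9, 283.1, 227.9, 139 and 453, so that 4 of the 5 exceeded 100. The next 2 groups of chr05 held 4 events each. From 18263155 to 18265307 the signals were 62, 39, 653.7 and 43.3, and from 2191663 to 2193034 they were 61.3, 332, 24.6 and 41.5. On chr07 a group of 4 from 4417063 to 4418066 had signals of 66.8, 30.2, 36.6 and 386. Another from 2368692 to 2369400 had 42.5, 27.9, 100.6 and 35.

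The signal value, the authors' measure of event strength, had no stated scaling. Its median was 47.3 on chr05 (interval 46 to 49, quartiles 35 and 75) and 49.45 on chr07 (48 to 51.1, quartiles 35.8 and 79.9). The other chromosomes had medians of 49.2 ± 1.24, and only 1 of them lay below chr05. The difference of 2.15 between the chromosomes was larger than that SD, but the SD is a spread of single medians and not of differences between them. The intervals of the medians also overlap. Of the chr05 events 47.4% (45.0 to 49.8%) reached the median of the whole list, and of the chr07 events 50.3% (48.0 to 52.6%), where 50% of those on all numbered chromosomes did.

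By the authors' q, 940 events of chr05 (56.5%, 54.1 to 58.9%) and 1089 of chr07 (57.8%, 55.5 to 60.0%) had a −log10 q of at least 5, where 58.5% of all events on numbered chromosomes did. The share of chr05 was below that of all 17 others (56.6 to 61.1%), by a margin far smaller than its interval.

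Within chr05 signal was lowest in the middle. Median signal was 43 in the middle part (41 to 47.4), 49.9 in the left (47 to 52.1) and 47 in the right (45 to 50). On chr07 it was 47 in the middle (43.4 to 51.7), 47.7 in the left (45 to 50.9) and 51.95 in the right (50 to 54), highest in the right part. The intervals of neighbouring parts overlap, and on chr07 that of the left part lies within that of the middle. The middle minus the ends was −5.5 on chr05 and −3 on chr07, and all 17 others lay higher (−0.271 ± 2.35, from −2.55 to 5.6).

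The sign of the chr07 value was not stable. It was 1 among events with a −log10 q of at least 5 and 1.2 for the middle 20% of the span, whereas chr05 stayed between −4.6 and −3.6 under 4 alternatives that were chosen after seeing the data. Among events with a −log10 q of at least 5, where the chr05 value was −4, 5 of the 17 others lay lower. For the middle 20% of the span, where it was −3.6, 3 of them lay lower, down to −8. Dense and strong windows went together weakly. Over windows of 20 or more events Spearman's rho between count and median signal was 0.429 on chr05 (24 windows) and 0.245 on chr07 (25 windows). On the others it ran from −0.237 (chr09) to 0.785 (chr03), a range that holds both values. These are given as a description since windows of 1 list share their libraries.

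**Figure D4:**
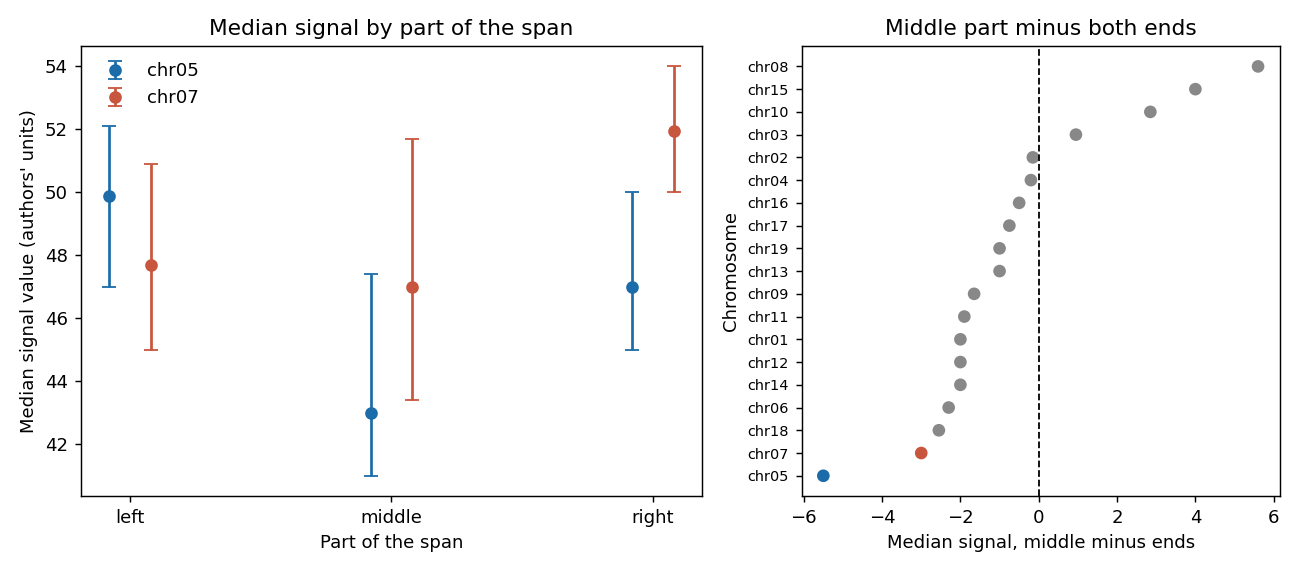
Left, median signal value in each part of chr05 (blue) and chr07 (red) with 95% order-statistic intervals; the axis does not start at 0. Right, median of the middle part minus that of the ends for each of the 19 chromosomes, with chr05 at −5.5 and chr07 at −3 below the others (grey).

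The emptiest windows were not alike in strength. On chr07 the 13 events from 9000001 to 10000000 had a median signal of 32.9, none above 103.8, and none had a neighbour within 1000 bp. The 11 events from 13000001 to 14000000 had a median of 79.9 and reached 392.2. On chr05 the 16 events from 13000001 to 14000000 had a median of 45.95 and reached 381.9. The richest windows had medians of 48.3 (chr05, 122 events) and 52.7 (chr07, 119 events). In them 38 of the 122 and 42 of the 119 events had a neighbour within 1000 bp, where 26.9% of all chr05 events and 27.9% of all chr07 events did. Since these windows were picked by their number of events, more close neighbours in the rich and fewer in the poor follow from the choice.

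Very strong events were about as frequent as elsewhere, within counting error. The top 1% of the whole list, signals of 392 or more, included 10 events of chr05 (0.601%, 0.289 to 1.10%) and 15 of chr07 (0.796%, 0.446 to 1.31%), where 0.912% of events on numbered chromosomes belonged to it. The others had 0.934 ± 0.233%, and 1 of them lay below chr05. On chr07, 1 of the 15 lay in the middle part, the event of 392.2 in the emptiest window, where that part held 18.7% of all chr07 events. By part, such events made up 1.02% of the left (0.443 to 2.01%), 0.283% of the middle (0.00717 to 1.57%) and 0.8% of the right (0.294 to 1.73%). These intervals overlap. The maximum of chr07 was 546, lower than on any of the other 17 chromosomes (691.5 to 4280).

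Strong events of chr05 were spread over its length and had the wider range. The strongest lay from 25566122 to 25566322 at the right end, with a signal of 871.5 (17.7 times the list's median, rank 33 in the list) and a −log10 p of 241.03. The second was at 21973972 to 21974172 with 798.5 and the next at 18264762 to 18264962 with 653.7. Thus the top 3 all lay in the right part. The next were at 4146992 to 4147192 with 555 and at 12172473 to 12172673 with 503.7.

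The remaining 5 of the 10 strongest on chr05 lay in the left and middle parts. Signals were 468.3 at 5569892 to 5570092, 436 at 7541385 to 7541585, 429 at 14960761 to 14960961, 426.5 at 3993835 to 3994035 and 394.7 at 2747450 to 2747650. Of the 10, 5 lay in the left part, 2 in the middle and 3 in the right, parts that held 43.8, 24.2 and 32.0% of all chr05 events. A neighbour within 1000 bp was present for 7 of the 10, where 26.9% of all chr05 events had one. The count is small, and among the 10 strongest of chr07 it was 4. Some of these chr05 neighbours stood closer than the 201 bp width of an event, down to 32 bp.

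Below the first, the 10 strongest events of chr07 differed little in signal. The strongest lay from 235806 to 236006 at the left end, with a signal of 546 (11.1 times the list's median, rank 125) and a −log10 p of 136.17. It was followed by 468 at 6133070 to 6133270, 462 at 22130351 to 22130551, 457.5 at 2672843 to 2673043 and 456.7 at 877296 to 877496. These 4 differed by less than 12 signal units.

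The last 5 had signals of 453 at 5114618 to 5114818, 450 at 21457225 to 21457425, 432 at 26153880 to 26154080, 431.8 at 19987366 to 19987566 and 430.8 at 4533030 to 4533230. Of the 10, 6 lay in the left part and 4 in the right. These parts held 41.5 and 39.8% of all chr07 events and the middle 18.7%, so 10 events cannot show that strong events avoid the middle. Of the 10, 4 had a neighbour within 1000 bp, where 27.9% of all chr07 events did.

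**Figure D5:**
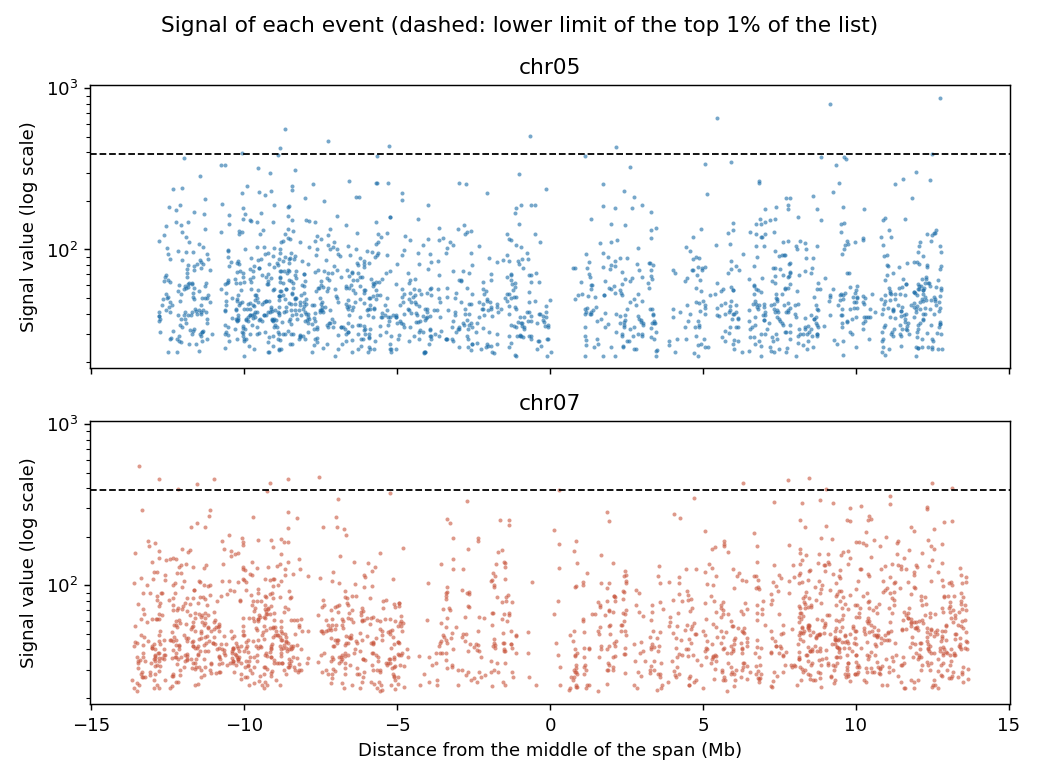
Signal value of every event (log scale) against its distance from the middle of the span in Mb, for chr05 (top) and chr07 (bottom); the dashed line is the lower limit of the top 1% of the list, 392. On chr05 the 3 strongest events lie in the right part, and on chr07 the points above the line lie at both ends with 1 in the middle.

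At the low end, signals began at 22 on chr05, where 12 events had that value, and at 22.1 on chr07. Classes of signal differed little otherwise. Events from 100 to under 200 made up 11.5% of chr05 and 13.9% of chr07, against 12.7% of the events on the other chromosomes. Those of at least 400 made up 0.541% and 0.637%, against 0.894%.

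Signal and p together give a view of the control. A control value was derived per event, namely the one that makes a binomial test (one-sided, equal odds) of signal against control return the p in the list. It fell within 0.05 of a whole number for 78.5% of the 1777 events of both chromosomes that had a whole signal and stood over 1000 bp from any other. The method of the caller is not stated, so this value is a derived one. Its median, over events where it was at least 1, was 11.0 on chr05 and 11.0 on chr07. The other chromosomes had 10.9 ± 0.0742, between 10.8 and 11.0. Many derived values recurred at a few spaced levels, and 11.0 was 1 of these levels. Equal medians therefore do not show that the background was equal more finely than the step between levels. The ratios of signal to control carry the same coarseness. Signal was a median of 4.54 times the control on chr05 (quartiles 3.15 and 8.26) and 4.55 times on chr07 (3.09 and 7.96), against 4.60 ± 0.174 on the others. Ratios too were taken only where the control was at least 1. This left out 23 events of chr05 and 28 of chr07 with a control under 1, and 6 and 12 without a derived control. Events with a control under 1 have high ratios, so leaving them out lowers the medians and quartiles.

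The middle parts did not stand apart in that ratio, at 4.63 on chr05 and 4.49 on chr07 compared with 4.50 and 4.56 at the ends. The 10 strongest events had control values between 4.88 and 20.9 on chr05 and between 3.97 and 21.0 on chr07. Their signal was 23.3 to 96.1 times and 22.3 to 109 times the control. Among events with a signal of at least 200 (70 on chr05 and 72 on chr07) the median −log10 p was 64.7 and 64.5. The lowest on chr07 was 15.25, at 26004929 to 26005129 with a signal of 307.6, and implies a control value of 139. The lowest on chr05 was 34.91, at 5441017 to 5441217 with a signal of 201.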

How the data were processed

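One list of MYBPA1 binding events in narrowPeak layout was analysed. The submitters' processing notes name fastp 0.21.0 and Bowtie2 2.0. The list's name gives GEM as the event caller. Not given in the sources used here are the genome build, the caller's settings, the control and how the 2 MYBPA1 libraries were combined. Each event has 4 values made by the authors and deposited as such, namely its −log10 q, its −log10 p, its signal and a display score (not used). The lowest −log10 q is 2 (q = 0.01). Decimal commas were read as points, starts were counted from 1 and the middle base of the 201 bp was the centre. The span from first to last event stood in for chromosome length. A full window of 1 Mb ended before the last event.

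No p-values were computed, because the list has no values per library. Regions named on each chromosome were the 10 strongest events, the 3 richest and 3 poorest windows, the 5 longest gaps, the 3 largest groups and the strongest pair. Others were named after their values were seen. The members, measures and limits were chosen with earlier results of these data known. No sequence or gene is given, since no genome of this build was used here. The control calculation, the shares and the neighbour counts were tested on simulated data. The work ran in Python 3.11.15 with scipy 1.17.1, numpy 2.4.6, matplotlib 3.10.9 and pandas 2.3.3.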

Additional observations from a re-analysis of the deposited data

How the results depend on the processing

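The density ratio of chr05 over chr07, the median signal difference and the middle share of chr07 kept within their main interval or spread under all alternatives tried (densities 0.887 to 0.949, signal −2.75 to −1.5, middle share of chr07 17.7 to 19.1%). The share with a close neighbour on chr05 over that on chr07, 0.967 at 1000 bp, was 0.979 at 500 bp and 0.970 at 5000 bp. Over 3 event lists, compared after seeing the data, it was 0.913 at a −log10 q of at least 5, 0.802 among the 50% of events with the highest signal and 1.02, the other direction, without events within 200 bp of a stronger one. Chr07 kept the lowest middle share of the 19 chromosomes in each of the 3 alternative event lists. The middle share of chr05 was 22.0% among the 50% of events with the highest signal. The middle of chr07 had 0.543 times the density of its ends when the middle was 50% of the span, and its ratio of variance to mean was 7.54 in windows of 500 kb. The shares with a neighbour within 1000 bp were lower in every shorter list, which holds fewer events by construction. On chr05 they were 20.5% at a −log10 q of at least 5, 17.3% among the 50% of events with the highest signal and 18.8% without events within 200 bp of a stronger one, and on chr07 22.5, 21.5 and 18.4%. Of 44 alternatives, 19 moved beyond the main interval or spread. Those for signal by position and for density outside long gaps were added after seeing the data and stand beside their results. Leaving out a replicate was not run. No paired analysis was possible because each event carries 1 value and no replicate number. Weak sites below the end of the list are beyond what these data can show, as the depth is unknown.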
